A study of Homo sapiens and Mus musculus with 16 samples.

Results

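ATAC-seq was performed in HPAF-II, a cell line established from a human pancreatic adenocarcinoma, with and without the nuclear receptor HNF4G. The regions described here were open in both conditions and ranked higher among the shared regions once HNF4G had been removed. Control cells were labelled Cas9 and WT, and no guide against HNF4G was named for them. HNF4G-KO cells had received Cas9 protein with guides to exons 3 and 4 of HNF4G, and the knockout population was a pool of 3 single-cell clones with frameshift mutations, so that properties of these clones and loss of HNF4G cannot be told apart. Both groups were grown in the same serum-containing medium and had 4 labelled replicates. A single list of open regions with a score per region represented each group, 118107 regions for the control and 97047 for HNF4G-KO, so that no value below has a replicate error and no p-value was computed.

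A control region counted as shared when it overlapped a HNF4G-KO region by at least 1 bp, and it was paired with the region of longest overlap. This gave 88632 shared pairs. The score of each region was turned into its percentile among the pairs in its own list. The strengthened regions were chosen by this readout, as those whose HNF4G-KO percentile was at least 20 points above the control percentile. They numbered 5526 of the 88632 shared pairs (6.23%), out of 364071 regions in the 4 lists of the series. The opposite change, a fall of 20 points or more, held for 6111 pairs (6.89%), called weakened below. Because a percentile is a rank, a strengthened region need not be more open in absolute terms. Scores, percentiles and widths of the members are therefore given as a description of the choice, and the features that the choice did not use are position, base composition and sequence.

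HNF4G is a nuclear receptor of the HNF4 family and, with its paralog HNF4A, recognizes the same DNA sequence in enhancers of gut, liver and pancreas epithelium. FOXA proteins are pioneer factors that can engage nucleosomal DNA, and GATA factors act with them in endoderm-derived tissue. AP-1 dimers of FOS and JUN proteins, and TEAD proteins with the coactivators YAP and TAZ, are common at enhancers of carcinoma cells, whereas promoters of broadly expressed genes are mostly rich in CpG. ATAC-seq reports where a transposase can reach the DNA and does not show which protein is bound. The epithelial genes EPCAM, CDH1, KRT8, KRT18 and KRT19 had promoter regions in both lists, while the leukocyte genes PTPRC and CD3E and the endothelial genes PECAM1 and CDH5 had none. The fibroblast genes COL1A1 and PDGFRB had 1 promoter region each in both lists.

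The sequences below are examples for the comparisons and do not stand for the members as a whole. For each of the HNF4, GATA and AP-1 consensus sequences, the distal member with the largest change that held it in these 200 bases, contained no annotated exon there and had not been taken for another consensus was used, together with a CpG-rich promoter member and, for contrast, a weakened region with the HNF4 consensus. Each is 200 bases of the forward strand of hg38. Capitals mark the named consensus on either strand, or CG dinucleotides in the promoter. The GATA example lay at chr10:109823279-109823478, intergenic, with XPNPEP1 as nearest coding gene. The HNF4 example lay at chr13:107211157-107211356, in an intron of NALF1, and the AP-1 example at chr10:49831777-49831976, in an intron of PARG. The promoter example lay at chr10:124744403-124744602, in a region that covers a start site of FAM53B and whose center is in an annotated intron of ENSG00000258539, and the weakened region at chrX:125289323-125289522, intergenic, with TEX13C as nearest coding gene.
XPNPEP1, GATA: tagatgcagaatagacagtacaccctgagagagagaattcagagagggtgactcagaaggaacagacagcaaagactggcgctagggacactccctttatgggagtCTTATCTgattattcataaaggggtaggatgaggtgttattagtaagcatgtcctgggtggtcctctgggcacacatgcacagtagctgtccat
NALF1 intron, HNF4: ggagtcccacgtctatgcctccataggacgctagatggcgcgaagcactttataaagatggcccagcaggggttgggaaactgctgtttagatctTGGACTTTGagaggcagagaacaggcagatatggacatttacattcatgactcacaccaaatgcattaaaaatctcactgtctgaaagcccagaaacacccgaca
PARG intron, AP-1: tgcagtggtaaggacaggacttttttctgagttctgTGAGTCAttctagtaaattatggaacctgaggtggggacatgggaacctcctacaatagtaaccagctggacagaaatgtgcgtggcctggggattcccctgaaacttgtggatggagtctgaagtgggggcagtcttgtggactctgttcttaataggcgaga
FAM53B promoter, CG: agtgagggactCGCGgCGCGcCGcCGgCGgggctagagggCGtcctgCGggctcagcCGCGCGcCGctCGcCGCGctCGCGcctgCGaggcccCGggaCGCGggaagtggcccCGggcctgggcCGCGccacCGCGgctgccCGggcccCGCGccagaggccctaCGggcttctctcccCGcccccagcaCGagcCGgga
TEX13C, HNF4, weakened: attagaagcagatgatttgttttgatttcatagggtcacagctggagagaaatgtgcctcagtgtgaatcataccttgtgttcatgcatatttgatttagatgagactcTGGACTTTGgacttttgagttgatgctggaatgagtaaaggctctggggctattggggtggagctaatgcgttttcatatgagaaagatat
The XPNPEP1 region went from a score of 132 in the control to 379 in HNF4G-KO. The NALF1 region, among the 26 members with the HNF4 consensus, went from 63 to 267. The region near TEX13C holds the same 9 letters and went from 749 to 146.

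Pairing separated the members into classes that differed in kind. In 4159 members (75.3%) neither region overlapped more than 1 region of the other list, which held for 94.6% of the shared regions that were not strengthened and 94.5% of the weakened ones. Such pairs are called one-to-one. Among the 82786 one-to-one pairs, 5.02% were strengthened and 6.98% weakened. The other 1367 members are called several-to-one. In 1270 of them, a single HNF4G-KO region spanned several control regions. These 1270 lay under 1073 HNF4G-KO regions, and under 875 of those the highest-scoring control region was not itself strengthened. The region with the largest change of all members was of this kind. A 241 bp control region 573 bp from a start site of PRKACA, which encodes a catalytic subunit of protein kinase A, had a score of 28 and was paired through 29 bp of overlap with a HNF4G-KO region of score 1031. The neighboring control region, 586 bp wide and scored 1218, overlapped the same HNF4G-KO region by 570 bp and changed by -0.03 points. Similar pairs were seen near MYOF and at BBIP1 and SHOC2. Each result below is thus given for one-to-one members, with the value for all members where the 2 differ.

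One-to-one members were mostly weak regions of the control list that reached the middle of the HNF4G-KO list. Their median score was 123 in the control (24 to 444) and 177 in HNF4G-KO (90 to 835), or a median percentile of 19.5 and 47.6. The median change was 25.3 points and the largest 66.7. A control percentile under 25 was held by 60.5% of them, and 7.29% reached the 75th percentile in HNF4G-KO. They were 423 bp wide in the control and 452 bp in HNF4G-KO at the median, and 57.9% were wider in HNF4G-KO, against 26.4% of one-to-one regions that were not strengthened. Several-to-one members changed by 41.4 points at the median and the HNF4G-KO region was 2.81 times as wide as the control region. At the limit itself, a region near BTBD9 was just inside with a change of 20.0018 and a region near ATF7IP2 just outside with 19.9950. There were 540 pairs between 20 and 21 points and 640 between 19 and 20.

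Strengthened regions lay at promoters more often than weakened ones. A start site within 1000 bp was found for 28.1% of one-to-one members (1170 of 4159, Wilson 95% interval 26.8 to 29.5) and 12.8% of weakened one-to-one regions (11.99 to 13.72). Against all one-to-one regions that were not strengthened (26.4%), the difference was 1.73 percentage points (Newcombe 95% interval 0.35 to 3.15). With percentiles recomputed among one-to-one pairs it was 1.076 points and the interval included 0 (-0.22 to 2.40). By band of change, the promoter share of one-to-one pairs was 32.7% between 0 and 10 points and 26.9% between 20 and 30. At 40 points or more it was 37.0%. All intervals here cover counting error only, and nearby regions are not independent. Weak regions are seldom promoters, so that control percentile matters for this comparison. When the other regions were reweighted to the control percentile and width of the members, their promoter share fell to 21.5% and the difference was 6.61 points. Members still ranked higher in HNF4G-KO by choice, which this did not equalize, and promoter share is higher in stronger regions. The part of HNF4G-KO rank in this difference was not tested. Over all 5526 members the share was 37.3% and the difference 9.69 points (8.392 to 11.01), since 65.1% of the several-to-one members were at promoters.

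The contrast with other regions widened with the starting level. Among one-to-one pairs in the lowest control quartile, 22.7% of members and 17.2% of regions with a change under 20 points were at promoters. In the next quartile the shares were 32.0% and 19.2%. Between the 50th and 75th percentile, 58.6% of the 278 members were promoters, against 27.9%. Within each quartile the members ranked higher in HNF4G-KO by choice. Among regions with a change under 20 points, the promoter share rose further, to 43.0%, above the 75th control percentile. The part of HNF4G-KO rank in these contrasts was not tested. No member started above the 75th percentile, and near the top of the control list a rise of 20 points is not possible. Base composition followed the same division. A GC content of at least 60% in the central 300 bp was seen in 25.5% of one-to-one members, in 20.3% of regions that were not strengthened and in 5.94% of weakened regions. The nearest start site belonged to a protein-coding gene in 76.4% of the members at promoters, in 71.5% of those not strengthened and in 54.7% of the weakened regions there. Only 6.52% of members were over 50 kb from any start site, against 12.05% of weakened regions and 6.95% of those not strengthened.

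**Figure D1:**
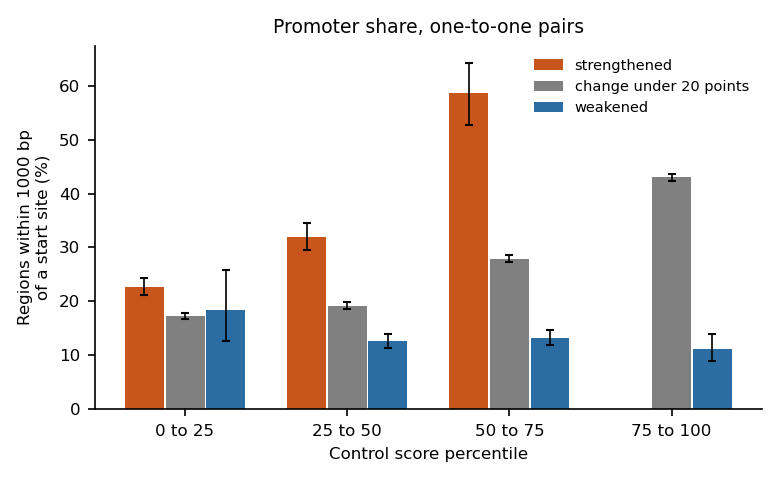
Share of one-to-one regions within 1000 bp of a start site (y axis, percent) by quartile of the control score percentile (x axis), with Wilson 95% intervals. Strengthened regions exceed those with a change under 20 points in each of the 3 quartiles that hold members, most from the 50th to the 75th percentile (58.6% against 27.9%). Rank in HNF4G-KO, higher in members by choice, was not equalized.

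Among coding promoters, the largest one-to-one change was at TMEM94, 217 bp from its start site, where the score went from 72 to 316 and the percentile from 5.94 to 70.4. The region of TMEM238 went from 82 to 301. That of EML1, which encodes a microtubule-associated protein, went from 76 to 287. These 3 regions were each wider in HNF4G-KO, the last growing from 255 to 827 bp. FAM53B rose from a score of 46 to 229 and MYRIP, a linker of RAB27 vesicles to myosin, from 85 to 279. WASHC1, a subunit of the WASH actin-nucleating complex, went from 99 to 302, but this gene has near-identical copies in subtelomeric DNA and its reads may be shared with them. The receptor tyrosine phosphatase gene PTPRM went from 92 to 274. LPIN2, which encodes a phosphatidate phosphatase of lipid synthesis, went from 118 to 324, and the protein kinase C gene PRKCQ from 70 to 231. At AGRN, which encodes the proteoglycan agrin, a region 290 bp from the start site went from 113 to 301. In 9 of these 10 windows GC content was 74.0% or more, and TMEM94 (50.7%) was the exception.

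Outside promoters, the largest change of any one-to-one member was in an intron of PATJ, which encodes a scaffold of the tight-junction polarity complex. This region at chr1:61887449-61887821 went from a score of 92 to 388 and from percentile 11.01 to 77.7. Next was an intergenic region 14648 bp from a start site of EPHA4, an ephrin receptor, with scores of 92 and 350 and an AP-1 consensus. An intronic region in PPM1L, a protein phosphatase gene, went from 50 to 249. The intron of PARG shown above, from a gene that removes poly(ADP-ribose), went from 56 to 255. Other members of this group were nearest to AKR1E2 (115 to 363, over 285 kb away), ANKS1B (99 to 319), GDAP1 (84 to 286) and NKAIN3 (56 to 232). All of these began below the 25th control percentile.

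A different set reached the top of the HNF4G-KO list, and these started from intermediate levels. The highest HNF4G-KO percentile of any one-to-one member, 97.8, belonged to a region at chr5:160260792-160261580 whose nearest coding start site was that of FABP6, the ileal bile acid-binding protein. Its score went from 311 to 835, it held a GATA consensus and it was 28757 bp from that start site. The other 9 of the 10 highest were promoters, at PPP1R32, FAM210B, OTUD1, EIF2AK2, RERE, NDRG3, UBTD2, HEY1 and BAIAP2L1. Their control scores were between 372 and 444 and their HNF4G-KO scores between 605 and 669. EIF2AK2, the kinase activated by double-stranded RNA, went from 440 to 649, and HEY1, a Notch target repressor, from 425 to 609. In raw score these changes were of similar size to those of the weak regions above, while in percentile they ranged from 20.8 points at HEY1 to 28.0 at PPP1R32.

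Sequence was then compared in the central 300 bp of each shared stretch, on both strands. The consensus searched for HNF4 was CAAAGTCCA. For FOXA proteins the letters TGTTTAC were searched. For GATA factors they were AGATAAG. AP-1 was represented by TGACTCA, which reads TGAGTCA on the other strand. Distal one-to-one regions, over 1000 bp from any start site, were used so that promoters did not weigh in. Of all 60855 such shared regions, 1.09% held the HNF4 consensus, 7.35% that of FOXA, 4.55% that of GATA and 31.5% that of AP-1. A match is a string of letters and not a bound site.

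The HNF4 consensus was rarer in strengthened regions. It was found in 17 of 2989 distal one-to-one members (0.569%, interval 0.355 to 0.909), against 1.12% of distal regions that were not strengthened (difference -0.55 points, -0.78 to -0.20) and 2.03% of weakened regions. After reweighting to the GC content and control percentile of the members, the other regions held 0.913% and the difference was -0.34. The share was 3.08% at -40 points or less, 1.21% between -10 and 0, 0.77% between 0 and 10, and 0.53% between 20 and 30 points, falling as the change rose. Above that, 4 of 601 regions between 30 and 40 points and 1 of 126 at 40 points or more held it, too few to order. The letters read backwards, a string of the same composition, were counted over all one-to-one regions, promoters included. They occurred in 0.240% of members and 0.317% of those not strengthened, a difference of -0.08 points (-0.19 to 0.13). In the same set the forward letters differed by -0.56 points (-0.73 to -0.30). At 0.317% of regions not strengthened, the backward letters were too rare to fall by as many points, so the 2 differences cannot be compared in size. With 1 mismatch allowed, over all members, the shares were 7.06% and 10.2%. One of the members that did hold the consensus lay in an intron of PDZD2 and went from a score of 55 to 145.

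FOXA and GATA letters were more frequent in distal one-to-one members. The FOXA consensus was present in 282 distal one-to-one members (9.44%, 8.44 to 10.5) and in 7.24% of those not strengthened, a difference of 2.19 points (1.17 to 3.31). Weakened regions held it in 7.45%, so that the share was nearly level from -40 to 20 points and higher only above the 20-point limit, reaching 16.7% (11.2 to 24.1) in the 126 distal regions with a change of 40 points or more. The GATA consensus was present in 178 distal one-to-one members (5.96%, 5.16 to 6.86), against 4.48% of those not strengthened (difference 1.48 points, 0.67 to 2.40) and 4.07% of weakened regions. After reweighting to GC content and control percentile, the differences were 2.49 points for FOXA and 1.18 for GATA. Over all one-to-one regions, promoters included, the backward FOXA letters were found in 4.81% of members and 5.07% of those not strengthened. In that set the forward FOXA letters differed by 1.68 points (0.88 to 2.55). For GATA, the forward letters differed there by 0.97 points (0.35 to 1.68) and the backward letters by -0.23 (-0.65 to 0.28). Over all members, promoters included, the GATA difference was 0.46 points with an interval that included 0 (-0.06 to 1.04). The FOXA and GATA consensus together were in 12 distal one-to-one members (0.402%, 0.230 to 0.700), against 0.334% of those not strengthened, which does not differ beyond counting error.

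The FOXA difference depended on which members and which stretch of DNA were used. Over all 5526 members, promoters included, it was 0.52 points with an interval that included 0 (-0.13 to 1.22). The backward FOXA letters differed there by -0.69 points (-1.215 to -0.10). Several-to-one members held the consensus in 5.03% of distal regions. When the whole control region was searched in place of 300 bp, members held it less often (9.14% against 11.1%). Members were also narrower in the control list than pairs with a change under 20 points (medians of 409 and 587 bp), and the part of width in this reversal was not tested.

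AP-1 letters were in 29.1% of distal one-to-one members, less than in regions not strengthened (31.7%, difference -2.56 points, -4.21 to -0.86) and in weakened regions (35.5%). Against regions not strengthened, this direction turned when GC content and control percentile were equalized, with a difference of 2.98 points. Over all members, promoters included, the AP-1 difference was -6.67 points (-7.74 to -5.56) and 0.11 after that reweighting. Against weakened distal one-to-one regions it was -6.37 and stayed negative (-1.30), with 1639 members left out for lack of weakened regions to match. The TEAD consensus ACATTCCA was in 2.01% of distal one-to-one members, 2.78% of those not strengthened and 3.75% of weakened regions. It stayed lower than in those not strengthened after reweighting (-0.51 points). The CTCF consensus was 1.30 points lower among distal members (-1.93 to -0.55). The ETS letters CCGGAAGT were 0.25 points lower (-0.37 to -0.005). RUNX (TGTGGTTT) and KLF (GGGCGTGGC or GGGTGTGGC) differed by 0.43 and 0.33 points, with intervals that included 0. HNF1, CREB (TGACGTCA) and CEBP (TTGCGCAA) occurred in under 0.5% of one-to-one members and showed no difference beyond counting error. None of the 12 consensus sequences was found in 50.4% of distal one-to-one members and 49.5% of the others.

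At some genes several members lay close together. Within 50 kb of a start site, 9 of the 18937 coding genes with a shared region had 5 one-to-one members each, the highest count. They were picked for this count, which is not adjusted for the number of shared regions at a gene. Over all one-to-one pairs, 5.02% were strengthened. The 8 described were FAM107B, SLIT1, SYT7, LTBP2, PTPRM, EPHA4, FOXP1 and PDZD2, taken by chromosome name as text among genes tied at that count. The other was GMDS, with 5 of 25 shared regions and a median change over them of 2.40 points. EPHA4 differed from the rest in that 5 of only 9 shared regions were members, with a median change over the 9 of 23.99 points, while the median was between 3.703 and 11.54 points at the other 7. The 5 members at EPHA4 went from scores of 99 to 136, 92 to 350, 77 to 128, 95 to 193 and 98 to 176. The first and the fourth of them held the FOXA consensus and the third that of GATA. The promoter region of the gene had scores of 584 in the control and 448 in HNF4G-KO and percentiles of 83.6 and 82.7. From that control percentile a rise of 20 points was not possible, so it could not be a member. At SLIT1, which encodes a secreted ligand of ROBO receptors, 5 of 15 shared regions were members, all between 20.04 and 30.67 points, and 3 of them were upstream of the first start site. At PTPRM the promoter and 4 further regions were members, 2 of them with the FOXA consensus. At FOXP1, a forkhead repressor, 5 of 39 were members, the largest from 123 to 282, and at LTBP2, a matrix protein of elastic fibers, 5 of 21 with the start site itself going from 216 to 305. The gene of the calcium sensor SYT7 had 5 members of 19, its start site from 304 to 508. PDZD2 had 6 of 20 and FAM107B 5 of 26, the latter with 2 weakened regions in between. The longest uninterrupted series of members had 4 shared regions, at CAMK1D on chromosome 10, where all 4 were one-to-one, and at PALS2 on chromosome 7, where 2 were one-to-one and the 4 fell on 3 HNF4G-KO regions. FAM107B and SLIT1 are also on chromosome 10, where 8.49% of one-to-one pairs were strengthened.

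**Figure D2:**
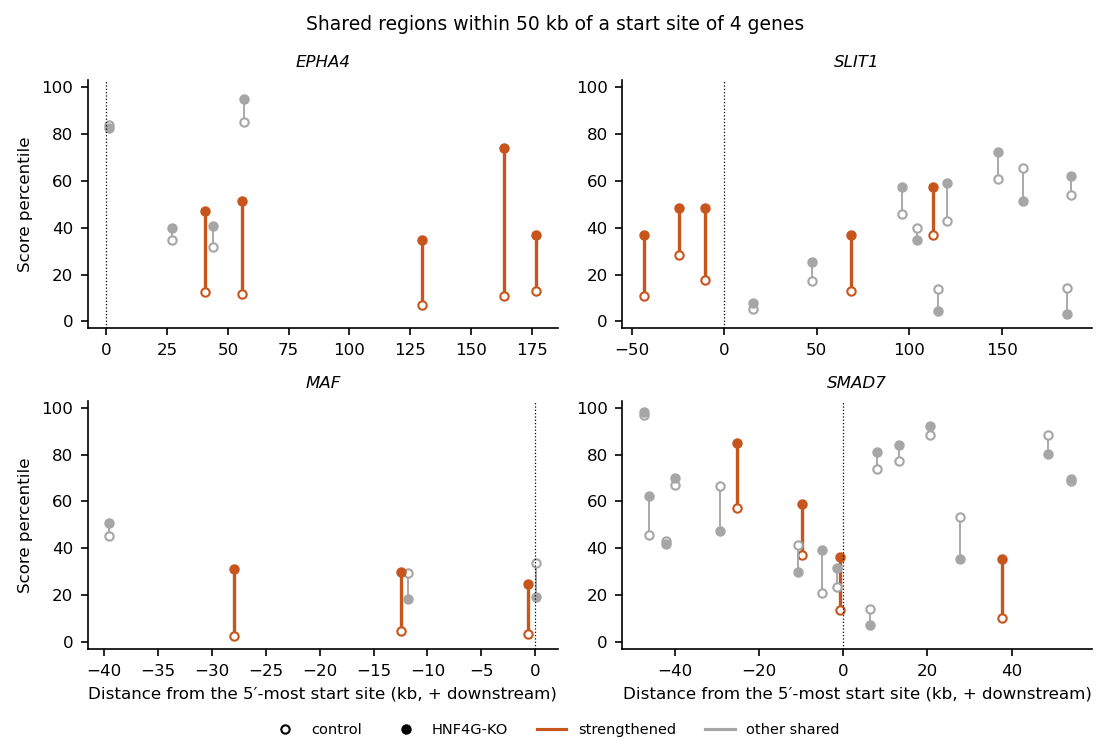
Score percentile (y axes) of every shared region within 50 kb of a coding start site of EPHA4, SLIT1, MAF and SMAD7, by distance from the 5′-most start site (x axes, kb, positive downstream). Open circles are control and filled circles HNF4G-KO, joined by an orange line for strengthened and a gray line for other shared regions; at EPHA4 the region at the start site stays near 83 while 5 regions inside and beyond the gene rise.

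Lists of genes were compared by the share of their shared regions within 50 kb that were strengthened, beside 6.23% over all shared pairs. These lists were chosen with earlier results of the data known, some of their genes share regions, and the shares are descriptions. Genes of AP-1 and MAF factors had 19 members of 186 regions (10.2%, 6.64 to 15.4), axon guidance genes 38 of 373 (10.2%, 7.51 to 13.7) and TGF-beta pathway genes 23 of 251 (9.16%, 6.18 to 13.4). Interferon and antigen presentation genes had 20 of 225 (8.89%), with an interval of 5.83 to 13.3. The intervals of the TGF-beta and interferon lists included the background. Wnt and stem cell genes (7.39%), TEAD and YAP genes (7.26%), lipid genes (6.13%) and basal subtype genes (6.09%) were near it. Genes of epithelial-mesenchymal transition (4.88%), the classical subtype (4.66%), lineage transcription factors (4.32%), integrins (3.51%) and ERBB receptors and ligands (3.03%) were below it, each with an interval that included it. Restricted to one-to-one pairs, where the background is 5.02%, the share was 9.41% for AP-1 and MAF factors (5.88 to 14.7), 8.68% for axon guidance (6.11 to 12.2) and 7.83% for the TGF-beta pathway (5.007 to 12.03, which included the background). For integrins it was 1.95% (0.761 to 4.91), below the background, and the intervals of the other 9 lists included it.

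List genes are named here and below for having at least 2 members, while 6.23% of all shared pairs were strengthened. Such counts do not show whether members were rarer or more frequent at a gene. In the AP-1 and MAF list the members were concentrated at MAFG, a small MAF protein, with 6 of 19 shared regions. Of these, 3 were one-to-one and 2 others fell on the same HNF4G-KO region. The one at its start site went from 44 to 134. At MAF, a large MAF protein, 3 of 6 regions were members, with scores of 61 to 100, 66 to 114 and 56 to 117, and the region covering the start site moved the other way, from 181 to 88. FOS, JUND and BATF had 2 members each. In the axon guidance list, after EPHA4, SEMA3F had 4 of 14 and a median change over its shared regions of 15.4 points. Its promoter region went from 311 to 426 and held the FOXA consensus, as did an intronic member that went from 87 to 118. EPHA2, EFNA5, PLXNB2, PLXND1 and SEMA3B had 3 each, and EPHB4, NRP1, SLIT2 and UNC5B 2 each. All 3 members at SEMA3B were several-to-one, and at PLXND1 2 of the 3 fell on the same HNF4G-KO region.

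In the TGF-beta list, SMAD7, the inhibitory SMAD, had 4 of 19 regions, of which the strongest, intergenic and upstream of the gene, went from 307 to 481. LTBP3 had 3, and LTBP4 and SMAD3 had 2 each, both at SMAD3 several-to-one and on the same HNF4G-KO region. LGR6, a receptor for R-spondins, led the Wnt list with 3 of 15, one at its start site from 128 to 182. WNT7A and AXIN2 had 2 each. For interferon and antigen presentation, ISG15 had 4 of 16, among them the AGRN promoter next to it and a region nearest to HES4. The other 2 at ISG15 were several-to-one and fell on the same HNF4G-KO region. NLRC5, the activator of class I genes, had 2 of 15 and OAS1, IRF7, CIITA and TAPBP had 2 each. In the basal list, KRT14, a basal cell keratin, had 3 of 11, none of them nearest to KRT14 itself. The members going from 86 to 156 and from 75 to 116 were nearest to KRT19 and also within 50 kb of KRT15. The member going from 82 to 110 was nearest to KRT17. LY6D and TNS4 had 2 each. A pair of regions downstream of VIM, the mesenchymal intermediate filament, went from 99 to 188 and from 149 to 210. Other list genes with 2 members were AMOTL1, TEAD3, WWTR1, YAP1, NRG2, MYO1A, ITGA7, ITGB2, APOH, DGAT1 and PPARA. All members at TEAD3, ITGA7, ITGB2 and PPARA were several-to-one, and at TEAD3, ITGB2 and PPARA both fell on the same HNF4G-KO region.

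The genes of the factors themselves had few shared regions each. With 6.23% of all shared pairs strengthened, such counts cannot show whether members were rarer or more frequent at these genes. None of the 6 shared regions within 50 kb of a start site of HNF4G was strengthened, and its start site region had scores of 486 and 424 and percentiles of 76.5 and 80.8. An intronic region 34300 bp from an HNF4G start site was weakened (409 to 167). HNF4A had no member among 13, FOXA1 none among 3, FOXA2 none among 8 and GATA6 none among 4. The main promoter region of FOXA2 went from the 84.8th to the 94.6th percentile and that of FOXA1 from the 86.4th to the 90.5th. From such control percentiles a rise of 20 points was not possible, so these promoter regions could not be members. The same held for a start site region of HNF4A, which began at percentile 94.15. At MYC, 1 of 6 was a member, a region 46968 bp from its nearest MYC start site that went from 163 to 246. A nearer region, 9090 bp from a MYC start site, was weakened (225 to 58). At PRMT1, which encodes the main asymmetric arginine methyltransferase, 2 of 13 were members. The larger, next to the start site, was several-to-one, with a score of 110 paired to a HNF4G-KO region of 567 that also held a control region of 717, and the other was nearer to CPT1C (52 to 117).

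Members were unevenly spread over the chromosomes. Of the one-to-one pairs on chromosome 10, 331 of 3897 were strengthened (8.49%, 7.66 to 9.41), against 96 of 3192 on chromosome 4 (3.01%, 2.47 to 3.66) and 61 of 2127 on chromosome X (2.87%, 2.24 to 3.67). Chromosome 13 had 7.42% and chromosome 17 6.36%. Weakened regions ran the other way at both ends, with 4.03% on chromosome 10 and 15.4% on chromosome 4. The difference between chromosomes 10 and 4 persisted among distal one-to-one pairs, at 8.43% and 2.60%. Over all members the shares were 10.1% and 3.97%. In 291 bins of 10 Mb, the share ranged from 0% to 11.9%, with a median of 4.47% of one-to-one pairs. The highest values were in neighboring bins at 90 to 110 Mb of chromosome 13, with 31 members in all, and on chromosome 10. No member was found in 2 bins, both on chromosome 4, with 71 and 95 pairs.

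**Figure D3:**
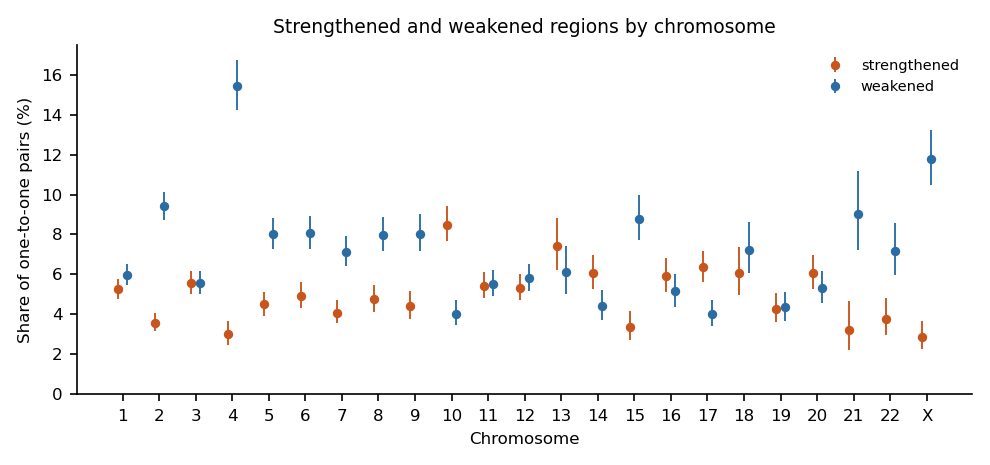
Share of one-to-one pairs that were strengthened (orange) or weakened (blue) on each chromosome (y axis, percent), with Wilson 95% intervals. Chromosome 10 has the highest strengthened share (8.49%), and chromosomes 4 and X have low strengthened shares and the highest weakened shares.

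Regions found in the HNF4G-KO list alone were near members slightly more often than near other shared regions. One lay within 10 kb of 9.11% of one-to-one members (8.28 to 10.0), against 7.402% of those not strengthened and 5.94% of weakened regions. Regions found in the control list alone were within 10 kb of 29.8% of members and 28.3% of those not strengthened.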

How the data were processed

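Omni-ATAC libraries of 50,000 cells were sequenced by the authors as 50-bp paired-end reads. The submitters' processing notes name Bowtie2 2.2.6, MACS2 2.1.1.20160309, DiffBind and hg38 for the human samples. How replicates were combined, the peak-calling threshold and any shift for the transposase were not given in the sources used here. The authors deposited 1 region list per group, and its score column, a whole number per region whose scale is not given in the sources used here, was the only measurement used. Depth per sample is therefore unknown, and differential calls were not used. Lists of mouse KPC primary tumor and liver metastases were only counted.

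All control and HNF4G-KO regions lay inside hg38 chromosomes. Overlaps, percentiles, distances to GENCODE 44 start sites and string searches in hg38 were computed in Python 3.11.15 (pandas 2.3.3, scipy 1.17.1, pysam 0.24.0). Promoters were within 1000 bp of any start site. A region was called exonic, intronic or intergenic by its center. Shares carry Wilson intervals and differences of shares Newcombe intervals (95%). Reweighted shares gave the other regions the members' distribution over deciles of control percentile crossed with deciles of width or GC content. Pairing, percentiles, string search and reweighting were tested on simulated data.

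The members and gene lists were chosen with earlier results of these data known. Named regions were the 15 one-to-one members with the largest change, the 10 coding promoters with the largest change, the 10 with the highest HNF4G-KO percentile, the 8 coding genes with most one-to-one members within 50 kb, list genes with at least 2 members, and HNF4G, HNF4A, FOXA1, FOXA2, GATA6, PRMT1 and MYC. Some items under this rule are not reported here. Alternatives changed the percentile, pairing, overlap, threshold, promoter distance, searched stretch and comparison group.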

Additional observations from a re-analysis of the deposited data

How the results depend on the processing

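Over 62 alternatives, of which 4 were chosen after seeing the data, the signs of the promoter and HNF4 differences did not turn, and that of FOXA turned in 2. The number of members was 5526, and 2525 with percentiles among all regions of each list, 9468 at a threshold of 15 points and 2050 at 30. The promoter difference, 9.69 points, was 14.7 with percentiles among all regions, 6.04 at 15 points, 20.9 at 30 and 15.6 after reweighting to control percentile and width. It was smaller where pairing was stricter, at 1.076 in one-to-one pairs with recomputed percentiles (-0.22 to 2.40), 2.46 with an overlap of at least 50% of both regions, 3.08 with widths differing by less than 2 times, and 6.61 in one-to-one pairs reweighted to control percentile and width. The HNF4 difference, -0.51 points, was -0.93 in the whole control region, -0.23 after reweighting to GC content and control percentile and -3.17 with 1 mismatch. The FOXA difference, 0.52 points, was 1.64 in one-to-one pairs, 1.49 with 50% overlap, 1.29 with similar widths, 1.38 after reweighting, 1.56 in distal regions and 2.49 in distal one-to-one regions after reweighting. It turned to -0.15 at a threshold of 30 points and to -1.92 in the whole control region. The cause was not tested. The spread between autosomes, 6.07 points, was 2.36 with percentiles among all regions, 10.2 at 15 points and 1.89 at 30. It is the highest minus the lowest share and cannot turn. Chromosome 10 was highest in every alternative run, and the lowest was chromosome 4, except chromosome 15 with percentiles among all regions and at 30 points and chromosome 21 in distal regions. No paired analysis was possible because each group had 1 list without values per replicate, and replicates could not be left out for the same reason. A change of rank between 2 lists cannot be set against replicate error or depth.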
